A study of Mus musculus with 24 samples.

Results

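Conventional CD4+ T cells of aged mice were compared with regulatory CD4+ T cells (Treg) of young mice, to ask how far old conventional cells come to match or pass the gene levels of young Treg. The comparison was defined by age and cell sort, not by any measured value: 6 samples of aged non-Treg and 7 samples of young Treg, 13 of the 24 samples in the series. Every mouse was a naive female C57BL/6. Aged mice were 22 to 24 months old and young mice 2 to 3 months old. Spleen cells were mixed with cells of lymph nodes draining the lacrimal gland and eye, then sorted as CD4+CD25-GITR- for non-Treg or CD4+CD25+GITR+ for Treg. The other samples, 5 of young non-Treg and 6 of aged Treg, came from the same design. Young non-Treg are given below as a reference level. Aged Treg are not compared here, but they entered the filter on low values and the shared fit. The assay was a NanoString nCounter panel of immune genes, in which barcoded probes are counted without amplification. Mice were pooled within an age, and the labels do not say that each sample was a separate pool, so p-values measure the spread between these samples, which may be technical.

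Treg restrain other T cells. Their identity depends on the transcription factor Foxp3, and they carry CD25 (Il2ra), the high-affinity chain of the interleukin-2 receptor, with inhibitory molecules such as Ctla4, Tigit and the ectoenzymes Entpd1 (CD39) and Nt5e (CD73). Conventional CD4+ T cells leave the naive state on meeting antigen and acquire effector genes, among them cytokines, chemokines and killing molecules. With age, the naive share of the CD4+ T cells in lymphoid organs is known to shrink and the memory and effector share to grow.

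Aged non-Treg differed from young Treg in both directions. Of 391 tested genes, 141 (36.1%) were higher in aged non-Treg and 106 (27.1%) were lower at an adjusted p under 0.05, 247 (63.2%) in all. The difference was 2-fold or more for 64 higher genes (16.4%) and for 38 lower genes (9.72%). For 229 genes (58.6%) the 95% interval of the difference lay wholly within 2-fold in either direction. Of these, 130 (33.2%) were called and small, and 99 (25.3%) were not called. For 45 genes (11.5%) the data settled neither a difference nor a match within 2-fold, with aged Treg also in the fit. The lowest sample of one group lay above the highest of the other for 139 genes (35.5%), 82 of them higher and 57 lower in aged non-Treg. All but 1 of those 139 genes were called. The exception was Klra8, named here after its values were seen. Gene levels below are normalized counts, meaning 2 to the power of the deposited log2 value, and differences are on the log2 scale as aged non-Treg minus young Treg.

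**Figure D1:**
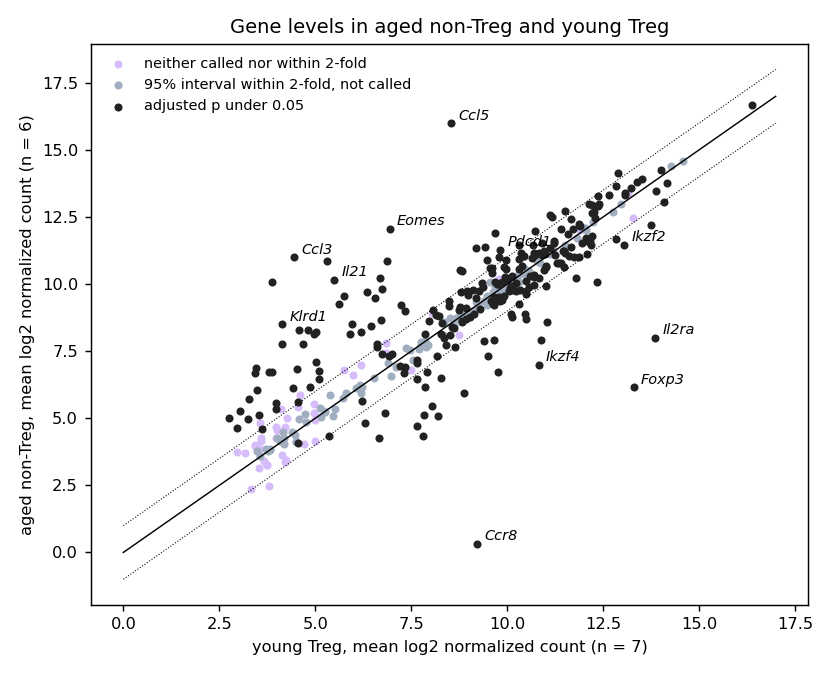
Mean log2 normalized count of each of 391 tested genes in 7 young Treg samples (horizontal axis) and 6 aged non-Treg samples (vertical axis), with the line of equal levels (solid) and 2-fold lines (dotted). Foxp3, Il2ra and Ccr8 lie far below the line and Ccl5, Ccl3 and Eomes far above it, while 229 genes have intervals within 2-fold.

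The genes of the sort followed the labels. Foxp3 had 32.9 to 124 normalized counts in aged non-Treg (median 77.1) and 9314 to 11125 in young Treg (median 9973). Il2ra had 192 to 337 in aged non-Treg (median 258) and 12684 to 17246 in young Treg (median 14435). Neither gene's groups overlapped, and an exact two-sided permutation test over 1716 splits gave p = 0.000583 for each, the smallest it can give. Il2ra encodes the CD25 used in the sort, so its difference follows from the sorting, and Tnfrsf18, which encodes GITR, was not analysed here. Cd4 was present in both, at 7346 to 8850 in aged non-Treg (median 8240) and 3842 to 5197 in young Treg (median 4848).

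Total counts were 814686 to 1279876 per sample in aged non-Treg and 453259 to 807392 in young Treg, with no overlap, and the part of this gap in depth in the results was not tested. Between 351 and 381 genes reached 20 normalized counts in aged non-Treg and between 326 and 372 in young Treg. The titles fall into 2 series, DP20323 with 3 aged non-Treg and 4 young Treg and DP182 with 3 of each. Of the 247 called genes, 245 differed in the same direction in both series. The split of the calls depended on the scaling. It was 141 higher against 106 lower as deposited, 110 against 125 after centring each sample on its median, 116 against 135 after quantile normalization, and 179 against 57 after centring on Abcf1, the only planned reference gene in the table. Median centring moved all differences by -0.12 and Abcf1 centring by 0.23, and 12 of the 247 called genes changed direction under Abcf1 centring, 4 under quantile normalization and 0 under median centring. None of those 12 or 4 differed by 2-fold or more. List medians below that are smaller in size than these shifts have no settled sign.

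Markers of other cells were measured for the same samples. B cell markers, 18 genes, summed to 2224 to 3148 normalized counts in aged non-Treg and 3265 to 3986 in young Treg. Cr2 was under 20 in every sample of both groups. Monocyte and macrophage markers, 9 genes, summed to 831 to 1842 in aged non-Treg and 534 to 672 in young Treg. Of these, Cd14, Cd163, Marco, Fcgr1 and Msr1 were under 20 in every sample of both groups, and Ccr2, which T cells also make, was the called member with the largest difference. Cd8a and Cd8b1 together summed to 24.0 to 45.7 in aged non-Treg and 43.6 to 78.6 in young Treg. The 3 natural killer genes in the table summed to 36.2 to 66.4 in aged non-Treg and 18.2 to 45.1 in young Treg, and Ncam1 was under 20 in all 13 samples. Of the 6 neutrophil markers, Csf3r, Cxcr2 and Ctsg were under 20 in all 13 samples. The neutrophil sum of 159 to 668 in aged non-Treg and 311 to 676 in young Treg includes Il1r2, a Treg-associated receptor. Plasma cell markers (4 genes) summed to 1984 to 3233 against 2075 to 2781, dendritic cell markers (8 genes) to 381 to 518 against 502 to 739, erythroid and platelet markers (4 genes) to 51.2 to 168 against 33.8 to 143, and stromal markers (5 genes) to 1798 to 3554 against 2326 to 3758. Of these, Tnfrsf17, Xcr1, Batf3, Cd209g, Clec4a4, Gp1bb, Ppbp, Cdh5, Pdgfrb and Fn1 were under 20 in all 13 samples. Vcam1 reached at most 5.04 on the log2 scale in these samples, so the stromal sum was mostly Pecam1. The 6 CD4 T cell markers summed to 60857 to 69242 in aged non-Treg and 43601 to 47067 in young Treg. The part of any other cell type in the results below was not tested. In sorted bulk samples, fewer cells with a transcript and less of it per cell cannot be told apart.

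Treg factors and receptors stayed far apart between the groups. Of 11 genes, all tested, 10 were lower in aged non-Treg, 0 were higher and 1 was not called, and the groups did not overlap for those 10. Over all tested genes 27.1% were lower, 36.1% were higher and 35.5% were without overlap. The median difference was -2.96, against 0.07 over all tested genes. It was the same with values under 20 set to 20. Il2ra belongs to the sort and Foxp3 defines its target, so the list is not independent of the comparison.

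**Figure D2:**
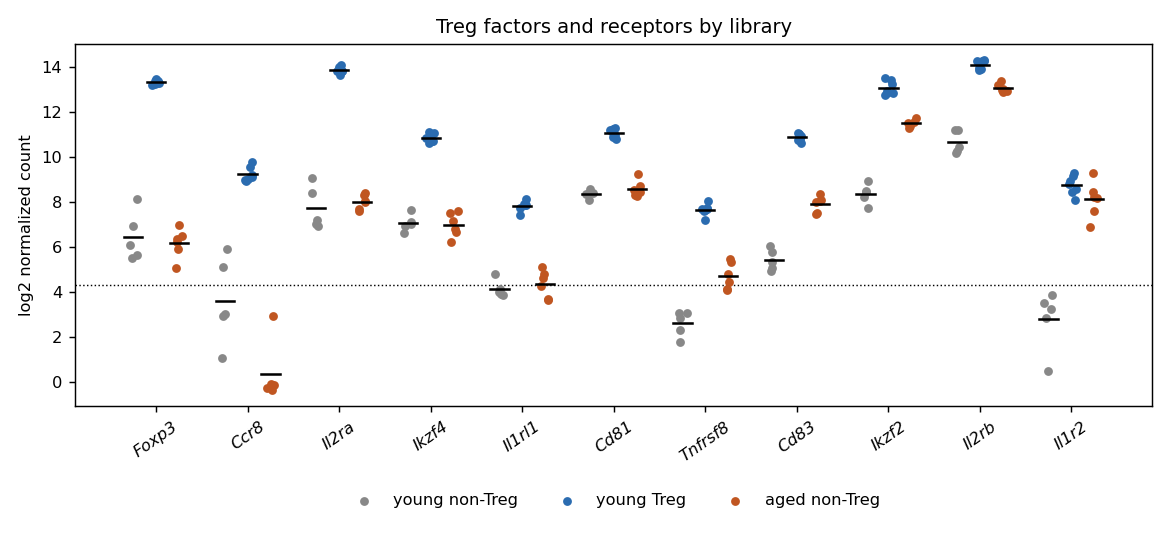
Log2 normalized count in each sample for 11 Treg factors and receptors in young non-Treg (grey, n = 5), young Treg (blue, n = 7) and aged non-Treg (orange, n = 6), with group means as bars and 20 counts as the dotted line. Foxp3, Il2ra, Ikzf4, Il1rl1 and Cd81 in aged non-Treg lie at the young non-Treg level, Ikzf2 and Il2rb lie between the young groups, and Il1r2 overlaps young Treg.

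Foxp3 was 141-fold lower in aged non-Treg (log2 difference -7.14 ± 0.32 SE, adjusted p = 9.91e-14). In young non-Treg it lay at 45.8 to 275 normalized counts, which the aged non-Treg range overlapped, and aged and young non-Treg differed by -0.30 ± 0.35. Ikzf4 (Eos), a transcription factor that works with Foxp3, had 74.9 to 190 normalized counts in aged non-Treg (median 127), against 1541 to 2202 in young Treg (median 1758), and young non-Treg had 97.4 to 201. It was 14.7-fold lower in aged non-Treg than in young Treg (-3.87 ± 0.14, adjusted p = 3.24e-15). Aged and young non-Treg differed by -0.02 ± 0.15 for Ikzf4. Il1rl1, the receptor for interleukin-33, had 12.3 to 34.3 in aged non-Treg (median 22.0) and 169 to 277 in young Treg (median 233), a difference of -3.49 ± 0.25, or -3.24 with values under 20 set to 20. Cd81, a tetraspanin, had 310 to 604 against 1740 to 2442 (-2.44 ± 0.12). For each of these genes the aged non-Treg samples were close to young non-Treg, which had 14.7 to 28.1 for Il1rl1 (difference 0.22 ± 0.27) and 267 to 384 for Cd81 (difference 0.21 ± 0.13). Ccr8, a chemokine receptor of Treg, was under 20 in all 6 aged non-Treg (0.784 to 7.61) and reached 483 to 868 in young Treg (median 543). It was therefore at least 29.7-fold lower in aged non-Treg (adjusted p = 2.06e-11).

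Other Treg genes lay between the young non-Treg and young Treg levels in aged non-Treg. Ikzf2 (Helios), a transcription factor of thymus-derived Treg, had 2454 to 3336 normalized counts in aged non-Treg (median 2864), against 6888 to 11654 in young Treg (median 7637), and young non-Treg had 214 to 485. The 3 groups did not overlap. Aged non-Treg were 3.07-fold below young Treg (-1.62 ± 0.12, adjusted p = 1.37e-10). Young Treg exceeded young non-Treg by 4.78 ± 0.13, and aged non-Treg exceeded young non-Treg by 3.17 ± 0.13. Across all tested genes, 187 (47.8%) were higher and 55 (14.1%) lower in young Treg than in young non-Treg, and 216 (55.2%) were higher and 46 (11.8%) lower in aged non-Treg than in young non-Treg. These 2 comparisons share the young non-Treg samples, and each shares its other group with the main comparison, so their values are set side by side only. Il2rb, the interleukin-2 receptor beta chain that memory T cells also carry, had 7458 to 10625 in aged non-Treg (median 8051) and 14554 to 19759 in young Treg (median 19138) (-1.03 ± 0.15, adjusted p = 2.39e-06). Young non-Treg had 1141 to 2327 of it. Cd83, an activation molecule, had 176 to 326 in aged non-Treg (median 257), against 1564 to 2112 in young Treg (median 1959), and young non-Treg had 30.4 to 66.0, and was 7.76-fold lower in aged non-Treg than in young Treg (-2.96 ± 0.16, adjusted p = 1.21e-12). Tnfrsf8 (CD30), a tumour necrosis factor receptor of activated lymphocytes, had 17.1 to 43.3 in aged non-Treg (median 24.6) and 144 to 260 in young Treg (median 202). It was 7.58-fold lower (-2.92 ± 0.22, adjusted p = 2.12e-10), or -2.85 with values under 20 set to 20.

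Il1r2, the decoy receptor for interleukin-1, was the member that was not called. It had 119 to 623 normalized counts in aged non-Treg (median 294), against 274 to 622 in young Treg (median 443), and young non-Treg had 1.38 to 14.7. The aged non-Treg and young Treg ranges overlapped almost fully, at a difference of -0.70 ± 0.38 (95% interval -1.49 to 0.10, adjusted p = 0.119), so a match within 2-fold was not shown either. It was called in 4 other settings, with values under 20 set to 20 (-0.67, adjusted p = 0.0258), a pseudocount of 10 (-0.66), quantile normalization (-0.91) and sample weights (-0.84).

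Suppressive molecules were split. Of 9 genes in the table, 8 were tested. Of these, 2 were higher in aged non-Treg, 3 were lower and 3 were not called, with a median difference of -0.19. The shares over all tested genes were 36.1% higher and 27.1% lower. Il12a was not tested, and it exceeded 20 in 0 of 6 aged non-Treg and in 1 of 7 young Treg samples. Over the same 8 genes, the median difference of young Treg from young non-Treg was 3.40, and that of aged non-Treg from young non-Treg was 3.26, against 0.34 and 0.47 over all tested genes.

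**Figure D3:**
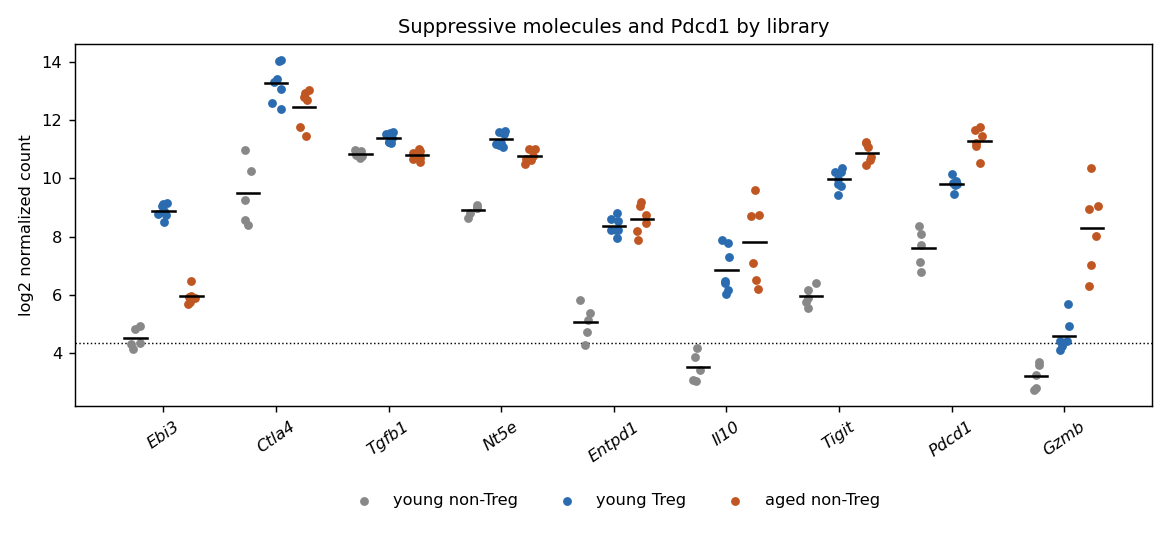
Log2 normalized count in each sample for 8 suppressive molecules and Pdcd1 in young non-Treg (grey, n = 5), young Treg (blue, n = 7) and aged non-Treg (orange, n = 6), with group means as bars and 20 counts as the dotted line. Ebi3 is lower in aged non-Treg than in young Treg, Entpd1 overlaps, and Tigit, Pdcd1 and Gzmb lie above all young Treg samples.

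Ebi3, a subunit of interleukin-35 and interleukin-27, had 51.0 to 87.6 normalized counts in aged non-Treg (median 59.3) and 365 to 567 in young Treg (median 465). It was 7.68-fold lower in aged non-Treg (-2.94 ± 0.14, adjusted p = 2.96e-13). Tgfb1, an inhibitory cytokine, had 1530 to 2089 against 2408 to 3103 (-0.59 ± 0.05, adjusted p = 7.08e-10). Nt5e, which makes adenosine from AMP, had 1441 to 2093 against 2151 to 3211 (-0.59 ± 0.08, adjusted p = 1.59e-06). The groups did not overlap for these 3 genes, but the intervals for Tgfb1 and Nt5e lay within 2-fold. Young non-Treg had 401 to 546 of Nt5e, below every sample of both other groups.

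Entpd1, which acts before Nt5e in the same pathway, was the suppressive gene matched within 2-fold and not called. It had 238 to 580 normalized counts in aged non-Treg (median 392), against 245 to 448 in young Treg (median 300), and young non-Treg had 19.3 to 56.1. The difference of aged non-Treg from young Treg was 0.21 ± 0.21 (95% interval -0.22 to 0.64, adjusted p = 0.400). Ctla4, an inhibitory receptor, had 2829 to 8577 in aged non-Treg (median 6950) and 5404 to 17182 in young Treg (median 10201), with overlap. Its difference was -0.80 ± 0.40 (adjusted p = 0.0868), and the title series disagreed, at -1.64 in DP20323 (adjusted p = 0.0103 alone) and 0.14 in DP182 (adjusted p = 0.828). Il10, an inhibitory cytokine, had 73.8 to 783 in aged non-Treg (median 274) and 64.6 to 237 in young Treg (median 88.3) (0.91 ± 0.55, adjusted p = 0.158). Its difference was 0.00 in DP20323 and 1.98 in DP182 (adjusted p = 0.0450 alone). In young non-Treg, Ctla4 had 338 to 2038 and Il10 had 8.16 to 17.7 normalized counts.

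Tigit, an inhibitory receptor, was higher in aged non-Treg than in young Treg. It had 1397 to 2456 normalized counts in aged non-Treg (median 1933), against 695 to 1303 in young Treg (median 1007), and young non-Treg had 46.6 to 84.9. The groups did not overlap, and aged non-Treg exceeded young Treg 1.92-fold (0.94 ± 0.15, adjusted p = 9.02e-06). Pdcd1 (PD-1), an inhibitory receptor of antigen-experienced T cells, had 1469 to 3467 against 703 to 1140 and was 2.81-fold higher (1.49 ± 0.23, adjusted p = 8.09e-06). Of 12 co-inhibitory receptors and ligands, all tested, 5 were higher in aged non-Treg, 2 were lower and 5 were not called. Their median was 0.41, or 0.28 with values under 20 set to 20. The shares over all tested genes were 36.1% higher and 27.1% lower. Lair1, a collagen receptor, had 175 to 290 in aged non-Treg (median 207) and 17.3 to 42.6 in young Treg (median 23.9) (3.04 ± 0.38, adjusted p = 4.23e-07). Lilrb4a, another inhibitory receptor, had 186 to 1214 against 48.5 to 161 (1.96 ± 0.38, adjusted p = 0.000132). Cd96, a receptor related to Tigit, was lower, at 389 to 506 against 1021 to 1199 (-1.36 ± 0.10, adjusted p = 1.45e-10). Cd274 (PD-L1) lay within 2-fold, at 595 to 1144 against 679 to 1022 (-0.07 ± 0.10).

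Costimulatory genes went in both directions. Of 14 costimulatory receptors and ligands, all tested, 6 were higher, 7 were lower and 1 was not called (median -0.33). The shares over all tested genes were 36.1% higher and 27.1% lower. Of the 6 tumour necrosis factor receptor family members of the costimulatory list, Cd27, Tnfrsf1b, Tnfrsf4, Tnfrsf8 and Tnfrsf9 were lower and Tnfrsf14 was higher. Tnfrsf4 (OX40) had 800 to 1616 normalized counts in aged non-Treg (median 1059), against 3803 to 6958 in young Treg (median 5993), and young non-Treg had 188 to 289. It was 4.70-fold lower in aged non-Treg than in young Treg (-2.23 ± 0.11, adjusted p = 3.45e-13). Tnfrsf9 (4-1BB) had 27.6 to 58.8 against 191 to 330 (-2.53 ± 0.13, adjusted p = 4.39e-13). These 2 receptors did not overlap between the groups. Tnfrsf14 (HVEM), the receptor for the ligand Tnfsf14 (LIGHT), was higher in aged non-Treg without overlap, at 1545 to 1748 against 1049 to 1469 (0.29 ± 0.08, adjusted p = 0.00189). Cd40lg, the CD40 ligand with which helper cells act on B cells, was also higher, with 2155 to 3262 in aged non-Treg (median 2627), against 596 to 753 in young Treg (median 714), and young non-Treg had 2349 to 3963. It was 3.83-fold higher in aged non-Treg than in young Treg (1.94 ± 0.14, adjusted p = 8.64e-11), with aged and young non-Treg differing by -0.21 ± 0.15. Icos, a costimulator of helper cells and Treg, overlapped between the groups at 2562 to 4118 against 2002 to 2787 (0.37 ± 0.14, adjusted p = 0.0202). That call was lost without aged non-Treg replicate 4 (adjusted p = 0.0557) or 6 (adjusted p = 0.0503) or without young Treg replicate 7 (adjusted p = 0.0540).

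The chemokines Ccl5, Ccl3 and Ccl4 gave the largest positive differences. Of 27 chemokines in the table only 10 passed the filter on low values, and 5 of them were higher, 0 were lower and 5 were not called (median 1.03, or 0.48 with values under 20 set to 20). Over all 27, fitted without the filter, the median was 0.00. Of all tested genes on the panel, 36.1% were higher and 27.1% lower. Ccl5, an inflammatory chemokine, had 28073 to 153558 normalized counts in aged non-Treg (median 65376), against 320 to 427 in young Treg (median 378), and young non-Treg had 556 to 1204. It was 171-fold higher in aged non-Treg than in young Treg (7.41 ± 0.39, adjusted p = 5.55e-13). Ccl3, another inflammatory chemokine, had 838 to 5049 in aged non-Treg (median 2130) and 6.54 to 45.2 in young Treg (median 25.4) (6.45 ± 0.54, or 6.18 with values under 20 set to 20, adjusted p = 7.35e-10). Ccl4, closely related to Ccl3, had 430 to 2736 against 6.36 to 22.4 (6.14 ± 0.48, or 5.66 with values under 20 set to 20, adjusted p = 3.00e-10). All aged non-Treg samples were far above all young Treg samples for these chemokines. Xcl1, which attracts cross-presenting dendritic cells, had 617 to 1496 against 48.2 to 148 (3.29 ± 0.28, adjusted p = 1.10e-09).

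**Figure D4:**
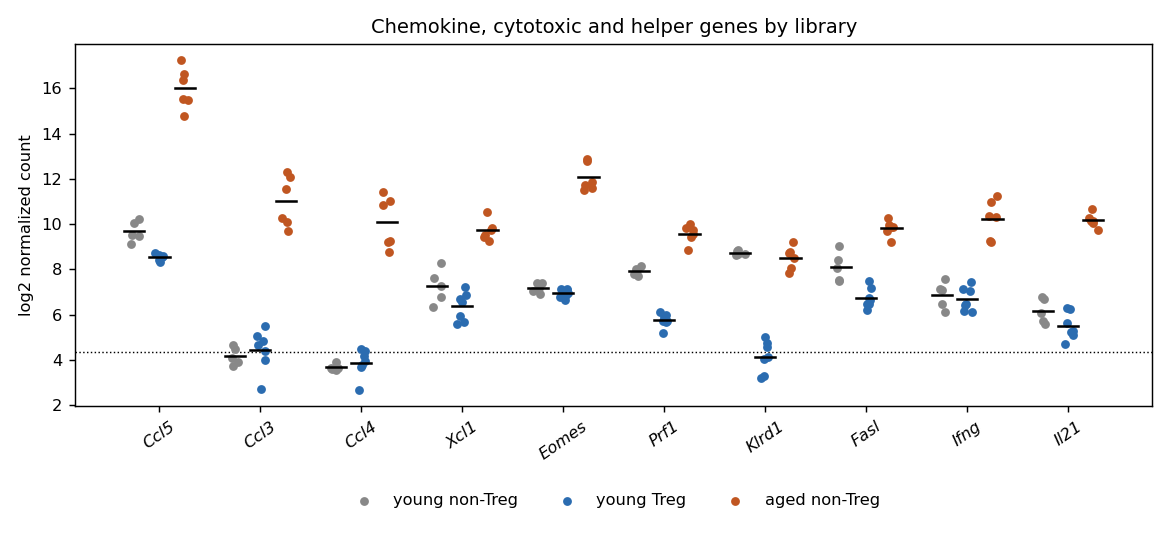
Log2 normalized count in each sample for 10 chemokine, cytotoxic and helper genes in young non-Treg (grey, n = 5), young Treg (blue, n = 7) and aged non-Treg (orange, n = 6), with group means as bars and 20 counts as the dotted line. All aged non-Treg samples lie above all young Treg samples for each gene, and Klrd1 in aged non-Treg lies at the young non-Treg level.

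Several cytotoxic genes and the killer receptors Klrd1, Klrc1 and Klrk1 were higher in aged non-Treg. Of 19 such genes measured, 11 passed the filter, and 7 were higher, 0 were lower and 4 were not called, with a median of 3.05. The other 8, all killer receptors, lay near or under 20, with medians of 5.26 to 15.7 normalized counts in aged non-Treg and 3.27 to 13.3 in young Treg, and 5 of them had the lower median in aged non-Treg. Over all 19 genes, fitted without the filter, the median was 0.62. For comparison, 36.1% of all tested genes were higher and 27.1% lower. Prf1, the pore-forming protein of killer cells, had 465 to 1014 normalized counts in aged non-Treg (median 799), against 35.8 to 70.0 in young Treg (median 52.3), and young non-Treg had 206 to 279. It was 14.0-fold higher in aged non-Treg than in young Treg (3.81 ± 0.21, adjusted p = 1.03e-12). Gzmb, the serine protease that enters through that pore and which Treg also use, had 79.3 to 1308 in aged non-Treg (median 373), against 16.8 to 50.8 in young Treg (median 21.0), and young non-Treg had 6.56 to 12.8. It was 12.5-fold higher (3.64 ± 0.51, or 3.59 with values under 20 set to 20, adjusted p = 1.87e-06). Fasl, a death ligand, had 587 to 1250 against 74.0 to 179 (3.05 ± 0.27, adjusted p = 2.32e-09). Gzma, another granule protease, had 69.7 to 162 against 9.09 to 30.0 (2.81 ± 0.37, or 2.27 with values under 20 set to 20). Both were without overlap.

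The killer receptors that were called differed in their level in young non-Treg. Klrd1 (CD94), a receptor subunit of natural killer cells and some T cells, had 229 to 585 normalized counts in aged non-Treg (median 392), against 9.09 to 32.3 in young Treg (median 17.2), and young non-Treg had 402 to 459. It was higher in aged non-Treg than in young Treg by 4.31 ± 0.56 (3.94 with values under 20 set to 20, adjusted p = 6.85e-07). Against young non-Treg, young Treg differed by -4.42 ± 0.59 and aged non-Treg by -0.12 ± 0.61. Its partner Klrc1 (NKG2A) had 125 to 261 in aged non-Treg (median 253) and 7.27 to 35.8 in young Treg (median 19.2) (3.55 ± 0.57, or 3.19 with values under 20 set to 20, adjusted p = 1.05e-05). Young non-Treg had 71.5 to 166 of Klrc1, overlapping aged non-Treg, which differed from it by 1.23 ± 0.62 (adjusted p = 0.0864). Klrk1 (NKG2D) had 198 to 506 against 17.4 to 50.4 (3.15 ± 0.42, adjusted p = 1.01e-06). Its young non-Treg level of 76.6 to 194 lay between the other groups without overlap, and aged non-Treg exceeded young non-Treg by 1.37 ± 0.46 (adjusted p = 0.0121). Tnfsf10 (TRAIL), another death ligand, differed by -0.05 ± 0.12, with an interval within 2-fold. Beside these genes, Klra8 had 22.8 to 35.1 in aged non-Treg (median 27.1) and 6.36 to 21.0 in young Treg (median 10.9) (1.19 ± 0.75, or 0.45 with values under 20 set to 20, adjusted p = 0.171), and Cd8a was under 20 in every aged non-Treg sample. The SE of Klra8 comes from the fit shared with aged Treg. On the log2 scale, aged Treg replicate 4 stood at 10.83 for Klra8 and the other aged Treg at 3.48 to 4.99.

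Promoter sequences are shown for 2 genes higher and 2 genes lower in aged non-Treg, to show the sequence at the start of a granule protease, a chemokine and a pair of Treg genes described above. They were picked among genes with an entry in the RefSeq promoter table (GRCm38.p6), Gzmb, Xcl1 and Tnfrsf8 after their values and motif matches were seen. Each line gives the 250 bases before the start, 5′ to 3′ on the gene's strand, and capitals mark letters of a searched motif on either strand.
Gzmb, chr14:56262335-56262584, minus strand: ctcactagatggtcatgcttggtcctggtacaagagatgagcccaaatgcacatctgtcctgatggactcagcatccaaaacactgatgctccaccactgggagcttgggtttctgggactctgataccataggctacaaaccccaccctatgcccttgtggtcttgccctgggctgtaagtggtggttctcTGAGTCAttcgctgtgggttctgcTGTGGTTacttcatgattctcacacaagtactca
Xcl1, chr1:164935523-164935772, minus strand: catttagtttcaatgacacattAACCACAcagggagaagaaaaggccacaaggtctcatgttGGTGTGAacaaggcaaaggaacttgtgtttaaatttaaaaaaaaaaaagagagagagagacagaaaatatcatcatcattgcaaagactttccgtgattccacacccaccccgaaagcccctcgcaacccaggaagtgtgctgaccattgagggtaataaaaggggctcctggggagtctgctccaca
Foxp3, chrX:7579426-7579675, plus strand: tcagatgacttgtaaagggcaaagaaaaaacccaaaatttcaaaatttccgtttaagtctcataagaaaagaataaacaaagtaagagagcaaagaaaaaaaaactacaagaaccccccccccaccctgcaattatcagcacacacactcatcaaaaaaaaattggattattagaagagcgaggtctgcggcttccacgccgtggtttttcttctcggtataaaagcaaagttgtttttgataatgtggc
Tnfrsf8, chr4:145315165-145315414, minus strand: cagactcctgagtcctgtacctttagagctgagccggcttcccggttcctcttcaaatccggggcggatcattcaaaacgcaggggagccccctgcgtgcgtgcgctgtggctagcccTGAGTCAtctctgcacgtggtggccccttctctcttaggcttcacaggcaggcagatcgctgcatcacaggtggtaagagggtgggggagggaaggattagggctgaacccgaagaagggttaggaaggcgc
The motifs searched were TGACTCA (AP-1), TCACACC (T-box), TGTGGTT (Runx) and TGTTTAC (forkhead), on both strands, and no matches overlapped in these windows. The Gzmb window held an AP-1 match 58 bases and a Runx match 34 bases before the start. The Xcl1 window held a Runx match 228 bases and a T-box match 188 bases before it, and the Tnfrsf8 window an AP-1 match 132 bases before it. The letters of none of the 4 motifs were in the Foxp3 window, which belongs to the first of 2 starts listed for that gene. The AP-1 letters occurred in 4.43% of all 27025 promoters, in 7.25% of 414 panel promoters, in 6.52% of the 46 found for genes at least 2-fold higher and in 7.14% of the 28 found for genes at least 2-fold lower. For Runx these shares were 4.46%, 7.97%, 10.9% and 3.57%, and for T-box 3.31%, 2.90%, 4.35% and 0.0%. For forkhead they were 3.09%, 2.42%, 2.17% and 0.0%. These matches describe letters only and were not tested.

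Among chemokine and homing receptors, counts were near the shares over all tested genes. Of 22 such genes measured, 19 were tested, with 9 higher, 4 lower and 6 not called in aged non-Treg (median 0.64, or 0.17 with values under 20 set to 20), against 36.1% higher and 27.1% lower over all tested genes. Cxcr6, a tissue-homing receptor, had 1218 to 2383 normalized counts in aged non-Treg (median 1930), against 58.2 to 229 in young Treg (median 101), and young non-Treg had 292 to 1154. It was 14.9-fold higher in aged non-Treg than in young Treg (3.89 ± 0.45, adjusted p = 1.35e-07). Cxcr3, a Th1-associated receptor, had 3045 to 4846 against 675 to 1012 (2.23 ± 0.16, adjusted p = 5.49e-11). These receptors did not overlap between the groups. Ccr2 had 284 to 1225 against 74.5 to 111 (2.91 ± 0.33, adjusted p = 8.44e-08), beside the monocyte sums given above. Cx3cr1, a receptor of cytotoxic lymphocytes and monocytes, was under 20 in all young Treg and had 70.2 to 191 in aged non-Treg (median 87.4), at least 5.11-fold higher (adjusted p = 5.91e-08). Ccr6 was lower in aged non-Treg, at 45.5 to 251 against 669 to 1020 (-3.08 ± 0.30, adjusted p = 7.21e-09), and Ccr8 is described above. Ccr4, a receptor of Treg and Th2 cells, lay within 2-fold, at 177 to 247 against 216 to 270 (-0.24 ± 0.15). Young non-Treg had 43.3 to 74.6 of Ccr4, below both groups.

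Th1 genes were mostly higher in aged non-Treg. Of 16 genes, all tested, 13 were higher, 2 were lower and 1 was not called (median 1.23, or 1.01 with values under 20 set to 20). Among all tested genes, 36.1% were higher and 27.1% were lower, with a median of 0.07. Eomes, a T-box factor of effector and memory T cells, had 2916 to 7489 normalized counts in aged non-Treg (median 3539), against 101 to 141 in young Treg (median 125), and young non-Treg had 120 to 170. It was 33.4-fold higher in aged non-Treg than in young Treg (5.06 ± 0.39, adjusted p = 2.51e-10). Tbx21 (T-bet), the Th1 master factor, had 212 to 335 against 58.7 to 103 (2.05 ± 0.17, adjusted p = 8.67e-10). Runx3, which works with T-bet, had 196 to 671 against 16.9 to 56.6 (3.37 ± 0.26, or 3.31 with values under 20 set to 20, adjusted p = 1.92e-10). The cytokine Ifng had 587 to 2441 against 70.0 to 174 and was 10.9-fold higher (3.45 ± 0.22, adjusted p = 1.59e-11). None of these 4 genes overlapped between the groups, and for Ifng young non-Treg, at 69.1 to 193, covered the young Treg range. Lta, a cytokine of lymphoid tissue, was lower in aged non-Treg, at 436 to 522 against 1323 to 1490 (-1.56 ± 0.08, adjusted p = 7.37e-13).

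Follicular helper genes were higher in 8 of 9 cases, and the other, Il6st, was lower by -0.55 ± 0.11 (median of the list 1.28). For comparison, 36.1% of all tested genes were higher and 27.1% lower, with a median of 0.07. Il21, the cytokine of follicular helper cells, had 849 to 1611 normalized counts in aged non-Treg (median 1115), against 26.0 to 79.2 in young Treg (median 39.1), and young non-Treg had 47.7 to 110. It was 24.6-fold higher in aged non-Treg than in young Treg (4.62 ± 0.29, adjusted p = 9.47e-12). Cxcr5, which leads cells to the follicle, had 1103 to 1974 against 321 to 573 (1.77 ± 0.19, adjusted p = 4.35e-08). Maf, which drives Il21 and Il4 in helper cells, had 1157 to 2052 against 375 to 565 (1.65 ± 0.15, adjusted p = 4.29e-09). Young non-Treg had 83.6 to 199 of Cxcr5 and 95.1 to 164 of Maf, so for both genes the order was young non-Treg, young Treg, aged non-Treg with no overlap between neighbours. Il4 was under 20 in all young Treg and had 83.8 to 154 in aged non-Treg (median 119), at least 5.82-fold higher (adjusted p = 1.22e-07).

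Counts of Th2 and Th17 genes were near the shares over all tested genes, of which 36.1% were higher and 27.1% lower. Of 11 Th2 genes 8 were tested, with 2 higher, 3 lower and 3 not called (median -0.07). Gata3, the Th2 factor that Treg also use, was lower in aged non-Treg, at 1344 to 2091 against 2492 to 3389 (-0.87 ± 0.12, adjusted p = 2.29e-06). Il4ra, the interleukin-4 receptor, was also lower, at 1416 to 3883 against 3465 to 5304 (adjusted p = 6.15e-07). Of 12 Th17 genes 11 were tested, with 5 higher, 3 lower and 3 not called (median 0.36). Il1r1, the signalling interleukin-1 receptor, was higher in aged non-Treg, at 36.9 to 170 against 5.64 to 22.6 (2.47 ± 0.47, or 1.65 with values under 20 set to 20, adjusted p = 9.14e-05).

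Genes of naive and central memory cells were more often lower than higher in aged non-Treg, but did not move as a block. Of 9 genes, all tested, 2 were higher, 6 were lower and 1 was not called (median -0.40). Among all tested genes, 36.1% were higher and 27.1% lower, with a median of 0.07. Ccr7, the lymph node homing receptor, overlapped at 2359 to 4468 normalized counts in aged non-Treg (median 2833) and 3636 to 5731 in young Treg (median 3997) (-0.59 ± 0.17, adjusted p = 0.00471), and young non-Treg stood above both with 8033 to 10411. Tcf7 (TCF-1), a factor of naive and memory T cells, was higher in aged non-Treg, at 14569 to 24570 against 5951 to 9277 (1.20 ± 0.08, adjusted p = 1.59e-11). On the log2 scale, young non-Treg had 14.05 to 14.66 of Tcf7, overlapping aged non-Treg at 13.83 to 14.58. Lef1, a relative of Tcf7, overlapped between aged non-Treg and young Treg at 1666 to 4822 against 2372 to 4387 (-0.31 ± 0.12, adjusted p = 0.0270). The Lef1 call was lost without young Treg replicate 2 (adjusted p = 0.0506) or aged non-Treg replicate 1 (adjusted p = 0.0953), 5 (adjusted p = 0.0522) or 6 (adjusted p = 0.0858). Ets1 differed by 0.00 ± 0.06 with an interval of -0.12 to 0.13, although other scalings moved it to 0.24 (Abcf1) and -0.47 (quantile).

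**Figure D5:**
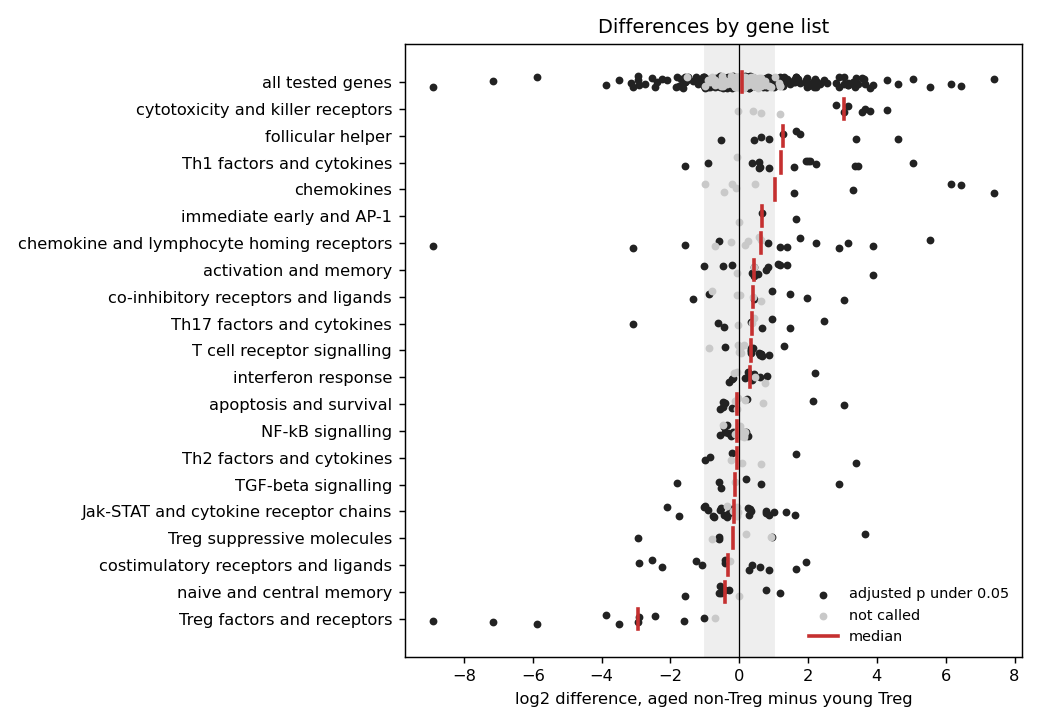
Log2 difference, aged non-Treg minus young Treg, of each tested gene (points; black where called) in 20 gene lists and over all tested genes, with list medians as red bars and 2-fold shaded. Treg factors and receptors have the lowest median, -2.96, and NF-kB signalling genes lie close to 0. The cytotoxicity median of 3.05 covers 11 of 19 members and is 0.62 over all of them, and the chemokine median of 1.03 covers 10 of 27 and is 0.00 over all of them.

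Activation genes and the T cell receptor machinery were modestly higher in aged non-Treg with the scaling as deposited. Their list medians were not recomputed under quantile normalization. Over all tested genes 36.1% were higher, 27.1% were lower and 58.6% had intervals within 2-fold, with a median of 0.07. Of 16 activation and memory genes 11 were higher, 3 were lower and 2 were not called (median 0.43). Cd44, the adhesion molecule that marks memory T cells, had 1851 to 2878 normalized counts in aged non-Treg (median 2223), against 1074 to 1535 in young Treg (median 1243), and young non-Treg had 630 to 772. The difference of aged non-Treg from young Treg was 0.77 ± 0.08 (adjusted p = 2.41e-08). Itga4, an integrin chain for tissue entry, had 3703 to 8942 against 1650 to 3516 (1.38 ± 0.07, adjusted p = 3.45e-13). Of 19 T cell receptor signalling genes 12 were higher, 1 was lower and 6 were not called (median 0.34), and 17 of the 19 had intervals within 2-fold. Ptpn22, a phosphatase that dampens receptor signals, had the largest difference of this list, 1.30 ± 0.07, with 4200 to 7618 against 1878 to 2941.

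NF-kB genes stayed close together, while Jak-STAT genes went in both directions. Of 20 NF-kB genes 2 were higher, 7 were lower and 11 were not called, and 19 had intervals within 2-fold (median -0.06). Shares over all tested genes were 36.1% higher, 27.1% lower, 58.6% within 2-fold and 35.5% without overlap. Of 30 Jak-STAT and cytokine receptor genes 10 were higher, 13 were lower and 7 were not called (median -0.16). Of the same 30, 20 had intervals within 2-fold and 13 were without overlap. Within this list, Cish, a feedback inhibitor that interleukin-2 signals induce, was lower in aged non-Treg, at 106 to 222 against 476 to 1077 (-2.11 ± 0.15, adjusted p = 9.10e-11). Ifngr2, a chain of the interferon-gamma receptor, was lower at 168 to 399 against 704 to 939 (-1.74 ± 0.14, adjusted p = 4.62e-10). Both were without overlap. Of 16 interferon response genes 9 were higher, 3 were lower and 4 were not called (median 0.30). Irf7, a factor of the interferon response, had 721 to 979 against 353 to 656 (0.81 ± 0.09, adjusted p = 6.58e-08).

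Of 13 apoptosis and survival genes 3 were higher, 5 were lower and 5 were not called (median -0.05). The shares over all tested genes were 36.1% higher and 27.1% lower. Casp1, the caspase of inflammasomes, had 2062 to 2919 normalized counts in aged non-Treg (median 2709), against 364 to 766 in young Treg (median 611), and young non-Treg had 95.1 to 279, and was 4.45-fold higher in aged non-Treg than in young Treg (2.15 ± 0.17, adjusted p = 3.89e-10). Of 9 genes of TGF-beta signalling 7 were tested, with 3 higher, 3 lower and 1 not called (median -0.13). Its receptor chains went in opposite directions. Tgfbr1 was lower in aged non-Treg, at 365 to 510 against 1357 to 1738 (-1.81 ± 0.10, adjusted p = 7.37e-13), and Tgfbr2 was higher by 0.64 ± 0.06 (adjusted p = 3.28e-09). On the log2 scale, young non-Treg had 12.01 to 12.56 of Tgfbr2, overlapping aged non-Treg at 11.83 to 12.33. Of 4 genes listed under immediate early and AP-1, 3 were tested, with 2 higher and Nfil3 not called, at 296 to 1507 against 346 to 1335 (95% interval -0.85 to 0.84).

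Genes outside these lists completed the largest differences. Src, a kinase, had 22.1 to 55.7 normalized counts in aged non-Treg (median 33.4) and 251 to 379 in young Treg (median 278) (-3.15 ± 0.21, adjusted p = 1.78e-11). Cd79b, a subunit of the B cell receptor, had 26.5 to 50.2 against 186 to 277 (-2.74 ± 0.19, adjusted p = 5.82e-11), beside the B cell marker sums given above, which were also higher in young Treg. Cd22, an inhibitory receptor of B cells, went the other way, at 226 to 352 in aged non-Treg (median 275) against 51.8 to 68.2 in young Treg (median 58.3) (2.18 ± 0.15, adjusted p = 5.82e-11). Of the 14 tested B cell markers 3 were higher, 4 were lower and 7 were not called (median 0.05). The shares over all tested genes were 36.1% higher and 27.1% lower. Among the called genes of 2-fold or more, H2-Eb1, a class II chain, was the exception to the agreement of the title series, at 2.09 in DP20323 and -0.10 in DP182.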

How the data were processed

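The deposited table holds log2 values of NanoString nCounter counts for 547 mouse genes in 24 samples. Turned back from the log2 scale, the deposited values came to whole steps of a constant size (0.627 to 2.63 between samples) for 100% of genes under 1000 counts, within 0.02 of a step, so the authors had scaled each sample's counts by a constant. The basis of that constant and the treatment of background are not given in the sources used here. Whole counts and totals (median 825440) were recovered from the steps. Replicates were numbered in accession order, and since every one of 61 within-group pairs differed beyond counting noise (chi-square over its degrees of freedom at least 2.43), none were merged. Symbols were matched to the RefSeq gene table (531 by symbol, 13 by older name, 3 unmatched).

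A gene was tested where it reached 20 normalized counts in at least 5 of the 24 samples (391 genes; 156 were left out). A linear model with 4 group means and a title series term was fitted to all samples with limma 3.58.1 (R 4.3.3), leaving 19 residual and 1.62 prior degrees of freedom. P-values were adjusted by Benjamini-Hochberg over all tested genes. A gene whose 95% interval lay wholly between -1 and 1 was called within 2-fold. Where all samples of a group lay under 20, the fold is a lower bound against 20. A gene can pass the filter through the group where it is high, and lists count tested members only. Summaries used Python 3.11.15 and scipy 1.17.1. The model was tested on simulated data.

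The comparison, the 20 gene lists and the 10 marker lists were chosen with earlier results of these data known, and some genes belong to several lists. Named genes were the 10 largest called differences in each direction, up to 4 called members per list by adjusted p, up to 3 members per list within 2-fold by size, both Treg lists, and the sort and lineage genes. Klrc1, Klrk1, Lilrb4a, Cx3cr1, Klra8 and H2-Eb1 fall outside this rule and were named after their values were seen. Some genes that the rule names are not reported here. Alternatives covered the scaling, the filter, a pseudocount, the covariate, each title series, the samples fitted and each replicate.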

Additional observations from a re-analysis of the deposited data

Results flagged for a closer look

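In 12 of 294 sets of 6 or 7 samples, each set being a named gene that reached 20 counts, or a depth measure, in 1 group, the highest or lowest sample stood apart from the rest by more than Dixon's limit, and chance gives about 1 in 20. Values here are log2 normalized counts, with the nearest other sample of the group beside each. Young Treg replicate 5 stood apart for 6 genes. It was low for Ccr6 at 9.39 (nearest 9.74), for Tnfrsf14 at 10.03 (nearest 10.36) and for Casp1 at 8.51 (nearest 9.19), and high for Tagap at 13.48 (nearest 12.27), for Irf4 at 9.92 (nearest 9.52) and for H2-Eb1 at 6.14 (nearest 4.78). Young Treg replicate 6 was high for Chuk at 9.91 (nearest 9.86) and for Tgfbr1 at 10.76 (nearest 10.53). Aged non-Treg replicate 1 was low for Klrc1 at 6.97 (nearest 7.72). Aged non-Treg replicate 4 was high for Ebi3 at 6.45 (nearest 5.96) and low for Zap70 at 11.27 (nearest 11.55). Aged non-Treg replicate 5 was low for Tbx21 at 7.73 (nearest 8.27). With these samples in, the groups did not overlap for Ccr6, Klrc1, Ebi3, Casp1, Tgfbr1, Tbx21, Zap70 and Tnfrsf14.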

How the results depend on the processing

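With each replicate left out in turn, calls numbered 234 to 243, of which 134 to 141 were higher and 97 to 106 lower, with 61 to 69 higher and 35 to 39 lower by 2-fold or more, 212 to 224 within 2-fold and 150 to 156 calls among the list genes. Lower calls fell to 57 with centring on Abcf1 and to 67 in DP182 alone. Stat6 (0.016) and Dpp4 (0.011) turned positive with Abcf1 centring, and in DP182 alone Ctla4 (0.14) turned positive and H2-Eb1 (-0.10) negative. Of 110 called named genes, 81 kept call and direction under all 27 alternatives, and 29 lost the call under at least 1; the cause was not tested. Leaving aged Treg replicates 4 and 6 out of the shared spread, an alternative chosen after seeing the data, gave 267 calls, including all 247. Fitting the 13 compared samples alone gave 260 calls, including 239 of the 247. No paired analysis was possible because the labels give no replicate numbers that the groups share. Low values lie near an unknown background, which limits genes under 20 counts.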
